A study of Mus musculus with 24 samples.

Results

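The genes described here are the 9 mouse DNA glycosylase genes other than Ogg1 and Mutyh: Tdg, Mbd4, Ung, Smug1, Mpg, Neil1, Neil2, Neil3 and Nthl1. They were taken by symbol from the count tables, in which all 9 of 55254 listed genes were found, and their RNA was followed in every library. The libraries came from nuclei of the hippocampus of male C57BL/6N mice aged 6 months. Nuclei were sorted by NeuN (Rbfox3), a protein of neuronal nuclei, into NeuN+ nuclei, those of neurons, and NeuN- nuclei, mainly those of glia. Each of these was sequenced in 4 genotypes with 3 libraries each, 24 in all: WT, Mutyh-/- (the gene for the adenine glycosylase lost), Ogg1-/- (the gene for the 8-oxoguanine glycosylase lost) and DKO, bred by crossing both knockouts so that it lacks both. The deletions were present in all cells of the animals, no treatment was given, and WT animals carried neither deletion. Nuclei of several animals of a genotype were pooled. The study's methods speak in general of independent biological replicates but do not say for these libraries whether the 3 of a group came from separate pools, so p-values measure the spread between libraries, part of which may be technical.

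DNA glycosylases start base excision repair by cutting a damaged or mismatched base from its sugar, after which an endonuclease, a polymerase and a ligase restore the strand. Tdg, Mbd4, Ung and Smug1 remove uracil or thymine that arises when cytosine or its methylated form loses an amino group, and Tdg also removes the oxidised forms of methylcytosine made by the TET enzymes. Mpg removes alkylated purines. Neil1, Neil2, Neil3 and Nthl1 remove oxidised bases, mostly pyrimidines, and Neil3 is best known from dividing cells. With Ogg1 and Mutyh, which act on oxidised guanine and on the adenine paired with it, they form the repertoire in which a change in the remaining enzymes could be looked for when 1 or 2 are lost.

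The libraries held 56563586 to 96192142 counts, of which 2785 to 6191 fell on the 9 genes. The sorting left its mark in every library: the summed level of 8 neuronal markers was 6170 to 7240 CPM (read counts normalised to library size and scaled between libraries) in NeuN+ nuclei and 665 to 831 CPM in NeuN- nuclei, and all 5 oligodendrocyte markers were lower in NeuN+ nuclei of each genotype. The targeted genes did not fall. Ogg1 was at 2.77 to 3.77 CPM in NeuN+ WT libraries and at 3.21 to 3.66 CPM in those labelled Ogg1-/-. Mutyh was at 1.15 to 1.28 CPM in NeuN+ WT libraries and at 9.88 to 11.5 CPM in those labelled Mutyh-/-, a log2 difference of 3.15. In NeuN- nuclei Ogg1 was at 5.7 to 6.43 CPM in WT libraries and 5.89 to 6.56 CPM in those labelled Ogg1-/-, and Mutyh at 2.39 to 2.82 CPM in WT libraries and 9.28 to 9.71 CPM in those labelled Mutyh-/-. The libraries labelled DKO held Ogg1 at 3.25 to 3.51 CPM (NeuN+) and 5.63 to 7.13 CPM (NeuN-), and Mutyh at 8.47 to 12.2 CPM and 6.65 to 9.22 CPM. Counts over a whole gene do not show which exons the reads came from, so the genotypes are used below as labelled. In NeuN- nuclei the summed level of 5 choroid plexus markers ran from 7.2 to 220 CPM in the libraries labelled DKO, from 9.52 to 98.6 CPM in those labelled Ogg1-/-, from 18.5 to 22.7 CPM in those labelled Mutyh-/- and from 34.2 to 61.7 CPM in WT libraries. Ribosomal protein genes (89 genes) took 0.0985 to 0.104% of counts in NeuN+ WT libraries and 0.079 to 0.0976% in the NeuN+ knockout libraries. In NeuN- nuclei they took 0.127 to 0.131% in WT and 0.108 to 0.122% in the knockout libraries, so WT lay above the knockouts in both nuclei types.

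Nthl1 and Mbd4 each start close to a neighbour on the other strand, and the upstream stretches they share with it are shown because the data below give the RNA of both genes of each pair. On GRCm38, Nthl1 (chr17:24632680-24638837, plus strand) starts 49 bp from Tsc2, which encodes a subunit of the complex that restrains mTOR signalling and runs the other way. Mbd4 (chr6:115840697-115853371, minus strand) starts 98 bp from Ift122, which encodes a subunit of the transport machinery of cilia. The sequences between the annotated starts (GENCODE vM21) were read from RefSeq promoters of the same build, at chr17:24632631-24632679 and chr6:115853372-115853469. They are written 5′ to 3′ on the strand of the glycosylase gene. Whatever the order of names in its label, each begins beside the start of the neighbour (Tsc2 or Ift122). Each ends beside the start of the glycosylase gene (Nthl1 or Mbd4). Capitals mark matches on either strand to 3 short promoter motifs, the CCAAT box (letters as named), the GC box bound by Sp1 (letters GGGCGG) and the core of sites for ETS factors (letters CGGAAG). No matches overlapped.
Nthl1 to Tsc2: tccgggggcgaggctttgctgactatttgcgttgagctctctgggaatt
Mbd4 to Ift122: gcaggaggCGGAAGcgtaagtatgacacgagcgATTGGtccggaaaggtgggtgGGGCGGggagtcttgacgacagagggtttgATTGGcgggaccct
The Mbd4 stretch held 2 matches to CCAAT, 1 to GGGCGG and 1 to CGGAAG, motifs found in 18.6%, 24.5% and 8.07% of the 98 bases before the start of 32851 RefSeq promoters. The Nthl1 stretch held none of the 3, which were found in 8.34%, 15.9% and 5.09% of the 49 bases before those starts. It held 3 CpG sites, against a median of 1 in stretches of that length, and the Mbd4 stretch held 8, against a median of 3. Over the 300 bp around the start, RefSeq gave a promoter for 8 of the 9 genes (all but Neil2), with 14 to 30 CpG sites each against a median of 7 over all promoters.

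In WT nuclei the glycosylase genes spanned a wide range of levels, with Tdg and Neil1 at the top and Ung and Neil3 at the bottom. Compared per length of annotated exon, NeuN+ WT nuclei held Tdg at 3.92 CPM per kb, Neil1 at 2.83 CPM per kb, Mpg at 2.38 CPM per kb, Mbd4 at 1.48 CPM per kb and Smug1 at 1.08 CPM per kb. Neil2 followed at 0.48 CPM per kb and Nthl1 at 0.478 CPM per kb, and their libraries overlapped. Ung at 0.0558 CPM per kb and Neil3 at 0.0254 CPM per kb closed the order, and their libraries overlapped too, while the other neighbours in the order did not. In NeuN- WT nuclei the order began with Tdg at 4.35 CPM per kb and Neil1 at 4.27 CPM per kb, which overlapped, and continued with Mpg at 1.67 CPM per kb and Nthl1 at 1.66 CPM per kb, which also overlapped. Mbd4 at 1.16 CPM per kb and Smug1 at 1.13 CPM per kb overlapped as well. Neil2 at 0.386 CPM per kb, Neil3 at 0.23 CPM per kb and Ung at 0.0639 CPM per kb stood apart from their neighbours in the order. Tdg made up 30.8% of the summed level per kb of the 9 genes in NeuN+ nuclei and 29.2% in NeuN- nuclei. Nthl1 made up 3.76% and 11.1%, respectively. Among protein-coding genes with any count, Tdg stood at percentile 63.9 in NeuN+ nuclei and 65.6 in NeuN- nuclei, and Ung at percentile 15.2 and 15.1. Exon lengths were those of GENCODE vM21, not of the Ensembl release the authors counted on. The study's methods do not say whether reads in introns were counted, so the order holds per exon length only. Per length of the whole gene it would differ, since Tdg spans 20972 bp and Mpg 6196 bp.

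**Figure D1:**
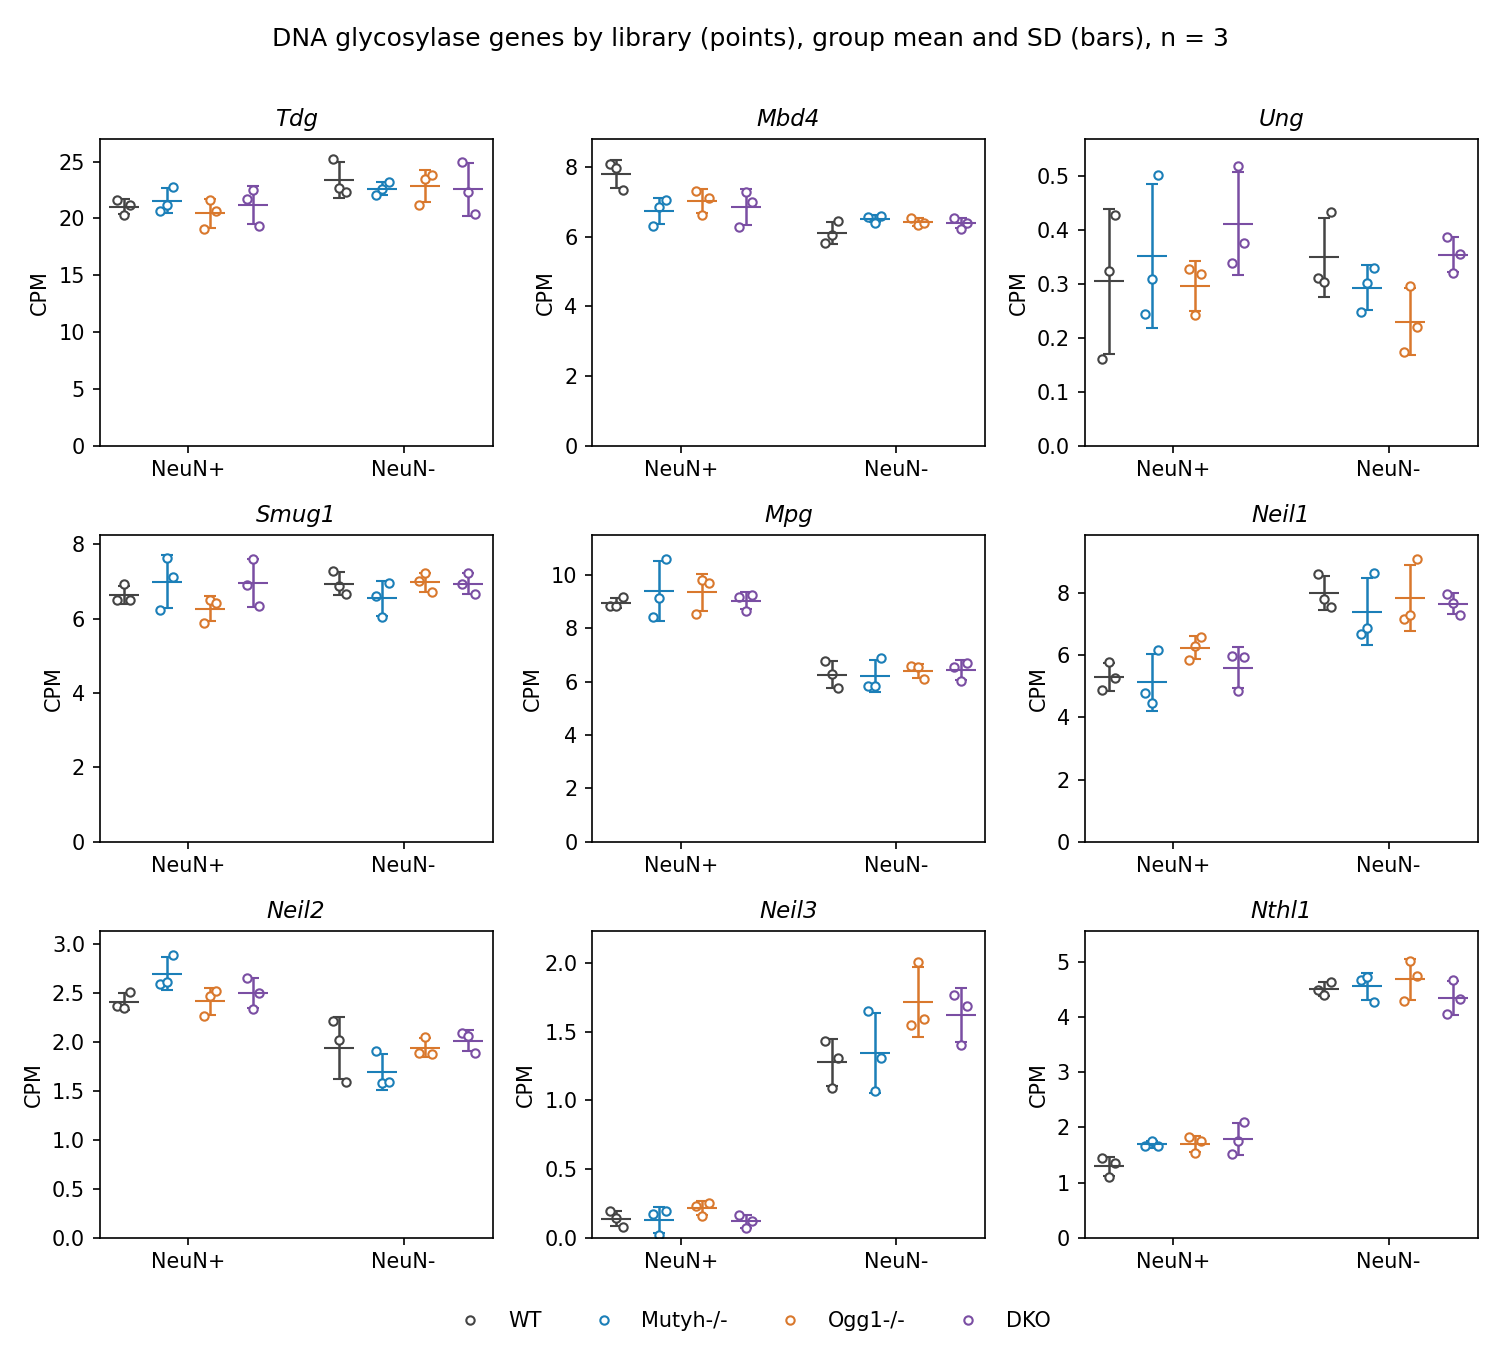
Level of each of the 9 glycosylase genes (y axis, CPM, from 0) in NeuN+ and NeuN- nuclei of the 4 genotypes, with a point for each library and the group mean and SD (n = 3). Neil3 and Nthl1 were lower in every NeuN+ library than in any NeuN- library, while the genotypes of a nuclei type lay close together for most genes.

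Neil3 and Nthl1 were the glycosylase genes with the largest differences between the nuclei types, and both were higher in NeuN- nuclei. A gene was called between nuclei types when the p from the quasi-likelihood test of edgeR, adjusted by Benjamini-Hochberg over all genes tested, was below 0.05 and the log2 difference beyond 1. Of the 9 genes 2 were called in WT, both lower in NeuN+, against a background of 42.9% of all genes tested called in either direction. The same 2 genes were called in the libraries labelled Mutyh-/-, Ogg1-/- and DKO, where the background was 43.9%, 43.9% and 44.4%. NeuN+ and NeuN- libraries ran on separate sequencing lanes, so nuclei type and lane cannot be told apart, and fewer cells of a type and less RNA per cell cannot be told apart in such bulk samples either.

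Nthl1, the glycosylase for thymine glycol and other oxidised pyrimidines, was at 1.44, 1.1 and 1.35 CPM in the NeuN+ WT libraries and at 4.49, 4.39 and 4.64 CPM in the NeuN- WT libraries. Every NeuN- library was above every NeuN+ library. The log2 difference, NeuN+ minus NeuN-, was -1.79 (SE 0.117, adjusted p = 3.39e-12, edgeR). In the libraries labelled Mutyh-/-, Ogg1-/- and DKO it was -1.43, -1.46 and -1.28. Across the 49 bp from the start of Nthl1, Tsc2 differed in the other direction, with 84 to 91.1 CPM in NeuN+ WT libraries and 64.5 to 67 CPM in NeuN- WT libraries (log2 difference 0.43, adjusted p = 7.3e-07, edgeR). Tsc2 was below the threshold for size.

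Neil3, the Neil protein of single-stranded DNA and interstrand crosslinks, was at 0.195, 0.146 and 0.0826 CPM in the NeuN+ WT libraries, which was 5 to 12 counts per library. In the NeuN- WT libraries it was at 1.43, 1.09 and 1.31 CPM, or 79 to 143 counts. The groups did not overlap, and the log2 difference was -3.17 (SE 0.339, adjusted p = 1.8e-08, edgeR). It was -3.28, -2.99 and -3.74 in the libraries labelled Mutyh-/-, Ogg1-/- and DKO. The NeuN+ level of Neil3 in WT was 11% of the NeuN- level. Summed markers of glia in NeuN+ WT nuclei were at 1.94% (oligodendrocytes), 3.65% (oligodendrocyte precursors), 10.8% (astrocytes) and 16.3% (microglia) of their NeuN- level. The microglial sum hides a wide range: the log2 differences of its 5 markers in WT ran from -8.17 to -1.22, with a median of -6.00. The part of RNA from other nuclei in the NeuN+ counts of Neil3 was not tested. Of 9 markers of dividing cells, 6 were lower in NeuN+ WT nuclei (Top2a, Mcm5, Cdk1, Mcm2, Ccnb1 and Aurkb) and none was higher by the same call, against 42.9% of all genes tested called in either direction. The other 3 were not called, 2 of the 9 were above 0, up to a log2 difference of 0.80, and the summed level of the 9 was 15 to 19.4 CPM in NeuN- and 14 to 14.9 CPM in NeuN+ WT libraries.

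Smaller differences between the nuclei types passed the test without reaching 2-fold. By adjusted p alone, 72.4% of all genes tested passed in WT, so a pass does not set a gene apart from the rest. Neil1, which removes oxidised pyrimidines and ring-opened purines, was at 4.87, 5.77 and 5.27 CPM in NeuN+ WT and at 8.61, 7.82 and 7.55 CPM in NeuN- WT libraries, a log2 difference of -0.59 (adjusted p = 0.000199, edgeR). Mpg differed the other way, at 8.84, 8.81 and 9.15 CPM against 6.75, 6.27 and 5.74 CPM, a log2 difference of 0.51 (adjusted p = 1.91e-05, edgeR). Both genes passed in the same direction in each of the 3 knockout genotypes as well, and so did Neil2, whose WT log2 difference was 0.31 (adjusted p = 0.0174, edgeR). The whole of Mpg lies within Nprl3 on the other strand, and 35.7% of the exon length of Mpg is shared with exons of Nprl3. How such reads were assigned is not given in the sources used here, so the count of Mpg is uncertain. Nprl3, at 41.4 to 43.4 CPM in NeuN+ and 36.2 to 39.2 CPM in NeuN- WT libraries, differed by 0.17 on the log2 scale in the same direction.

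Mbd4, which binds methylated CpG sites and removes thymine mispaired with guanine, was higher in NeuN+ nuclei in WT libraries, at 8.08, 7.96 and 7.33 CPM against 5.83, 6.05 and 6.44 CPM. The log2 difference was 0.35 (adjusted p = 0.000109, edgeR). In the libraries labelled Mutyh-/-, Ogg1-/- and DKO it was 0.05, 0.13 and 0.10 with adjusted p-values of 0.547, 0.104 and 0.193 (edgeR). These differences were not shown to depart from that in WT, as the direct tests had adjusted p-values of 0.364, 0.661 and 0.438 (edgeR). Ift122, the gene on the other side of the 98 bp, was also higher in NeuN+ nuclei in WT libraries, with a log2 difference of 0.49 (adjusted p = 0.000106, edgeR). In the libraries labelled Mutyh-/-, Ogg1-/- and DKO Ift122 remained higher, by 0.34, 0.255 and 0.385 log2 units (adjusted p = 0.00339, 0.0227 and 0.00124, edgeR).

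The uracil glycosylases and Tdg did not pass between the nuclei types in WT in the main fit, which took no pairs. Tdg was at 21.6, 20.3 and 21.2 CPM in NeuN+ and at 25.2, 22.7 and 22.3 CPM in NeuN- WT libraries, a log2 difference of -0.15 with a 95% interval of -0.309 to 0.001 (adjusted p = 0.0697, edgeR). With same-numbered libraries of the nuclei types taken as pairs, Tdg did pass in WT (log2 difference -0.152, adjusted p = 0.0138, edgeR). It stayed below the threshold for size. The last 367 bp of Tdg overlap exons of Glt8d2 on the other strand, 6.8% of its exon length, and Glt8d2 was 2.61 log2 units higher in NeuN+ nuclei. The interval for Smug1 was -0.236 to 0.107. For Ung, with 10 to 26 counts in NeuN+ and 22 to 38 in NeuN- WT libraries, the interval of -0.846 to 0.449 was too wide to show a difference short of those bounds.

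**Figure D2:**
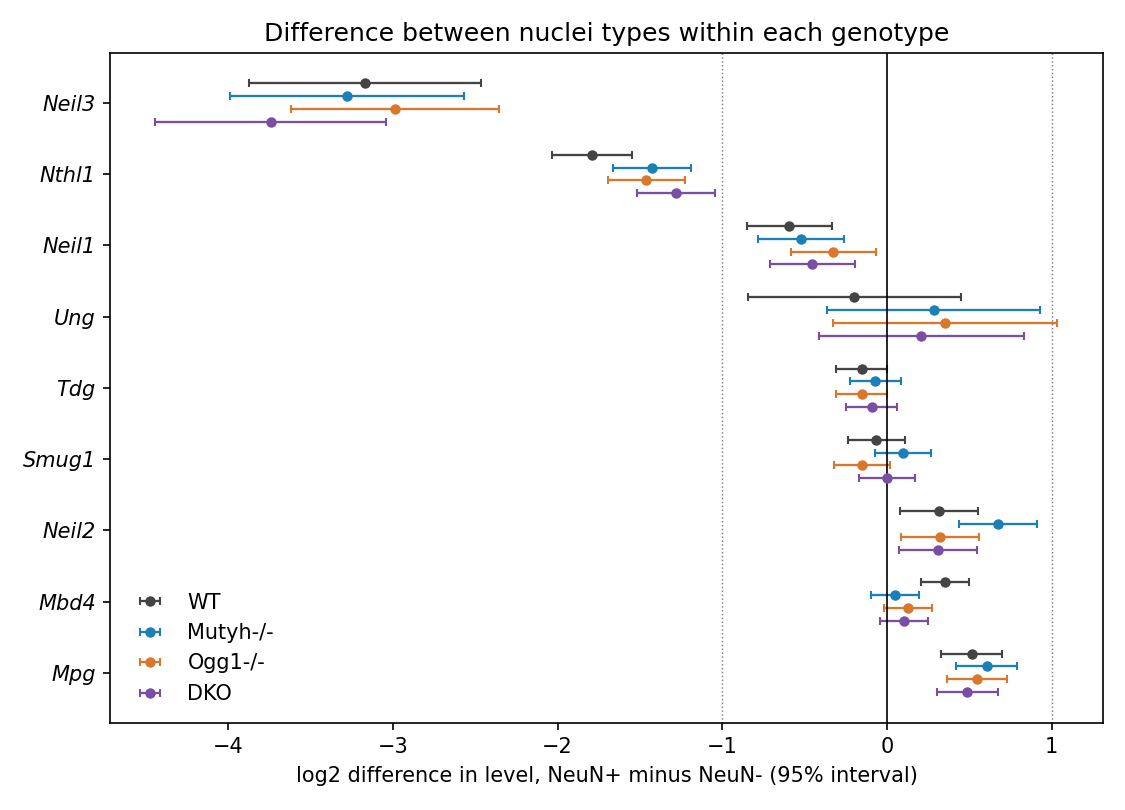
Log2 difference in level between NeuN+ and NeuN- nuclei (x axis, below 0 means higher in NeuN-) for the 9 genes, with 95% intervals, in each of the 4 genotypes. Dotted lines mark the threshold of 1, which Neil3 and Nthl1 passed in all 4 genotypes.

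No glycosylase gene was called when a knockout was compared with WT. This comparison asked whether the enzymes that remain were raised or lowered once Ogg1, Mutyh or both were lost. A gene was called at an adjusted p below 0.05 and a log2 difference beyond 0.5. In NeuN+ nuclei 0 of 9 genes were called in the libraries labelled Mutyh-/-, Ogg1-/- and DKO, where 0.428%, 0.574% and 0.302% of all genes tested were called. In NeuN- nuclei 0 of 9 were called as well, against 0.273%, 0.229% and 0.116%. A count of 0 of 9 is near these shares and does not set the 9 genes apart from the rest. At an unadjusted p below 0.05 stood 2 of 9 genes in each NeuN+ comparison, and 0, 2 and 0 of 9 in the NeuN- comparisons in the same order. Of all genes tested, 18.7%, 12.3% and 13.5% stood there in NeuN+ and 13.7%, 11.8% and 12.4% in NeuN- nuclei, so the counts among the 9 are near the background. By DESeq2 none of the 9 was called in any of the 6 comparisons either.

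The summed level of the 9 genes was 53.9 ± 0.173 CPM (SD, n = 3) in NeuN+ WT libraries. It was 54.7 ± 3.99 CPM in the NeuN+ libraries labelled Mutyh-/-, 54.0 ± 2.27 CPM where the label was Ogg1-/- and 54.4 ± 1.36 CPM where it was DKO. In NeuN- nuclei the sum was 58.8 ± 2.89 CPM in WT libraries and 57.2 to 59 CPM, as group means, in the knockouts. The sums of WT and knockout libraries overlapped in NeuN- nuclei, and in NeuN+ nuclei the 3 WT libraries (53.7 to 54 CPM) lay within the range of each knockout.

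**Figure D3:**
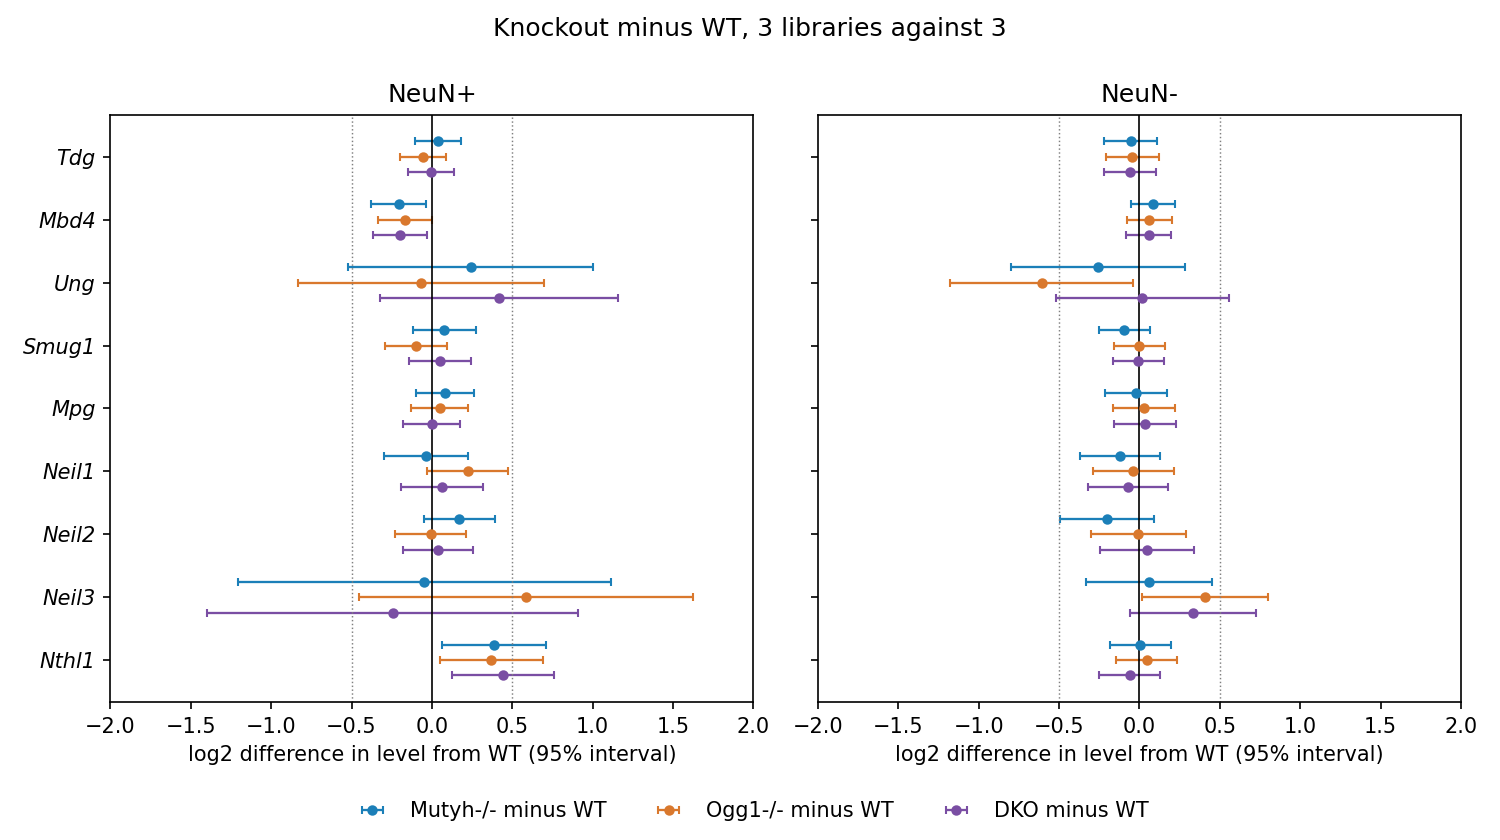
Log2 difference in level from WT (x axis) for the 9 genes in NeuN+ (left) and NeuN- nuclei (right), with 95% intervals of edgeR's fit for each knockout, 3 libraries against 3. Dotted lines mark the threshold of 0.5, and most intervals include 0, except for Nthl1 and Mbd4 in NeuN+ nuclei and for Neil3 and Ung in the NeuN- libraries labelled Ogg1-/-.

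Nthl1 came nearest to a rise in NeuN+ nuclei. Against 1.1 to 1.44 CPM in WT, it was at 1.66, 1.76 and 1.66 CPM in the libraries labelled Mutyh-/-, at 1.82, 1.54 and 1.75 CPM where the label was Ogg1-/- and at 1.51, 1.75 and 2.09 CPM where it was DKO. All 9 knockout libraries were above the 3 WT libraries. The log2 differences were 0.39 (95% interval 0.061 to 0.712), 0.37 (0.051 to 0.689) and 0.44 (0.123 to 0.762), with unadjusted p-values of 0.0232, 0.0258 and 0.00986 and adjusted p-values of 0.195, 0.309 and 0.21 (edgeR). The 3 comparisons share their WT libraries, so they are not separate evidence. In NeuN- nuclei the log2 differences of Nthl1 were 0.01, 0.05 and -0.06. The difference between nuclei types in the effect of genotype was 0.37, 0.33 and 0.51, with adjusted p-values of 0.533, 0.707 and 0.309 (edgeR). Tsc2 was at 84 to 91.1 CPM in NeuN+ WT libraries and its log2 differences were 0.14, 0.09 and 0.15, none called.

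Mbd4 came nearest to a fall in NeuN+ nuclei. Against 7.33 to 8.08 CPM in WT, it was at 6.31, 6.84 and 7.04 CPM in the libraries labelled Mutyh-/-, at 7.31, 6.63 and 7.1 CPM where the label was Ogg1-/- and at 6.28, 7.28 and 7 CPM where it was DKO. All 9 knockout libraries were below the 3 WT libraries, again the same 3. The log2 differences were -0.205, -0.17 and -0.20, or 0.868-fold, 0.889-fold and 0.871-fold of WT, with adjusted p-values of 0.191, 0.403 and 0.288 (edgeR). In NeuN- nuclei they were 0.08, 0.06 and 0.06, and the differences between nuclei types in the effect of genotype were -0.30, -0.22 and -0.25 with adjusted p-values of 0.364, 0.661 and 0.438 (edgeR). Mbd4 lies 2.51 Mb from Ogg1 on chromosome 6, and the part of that position in its level was not tested. Gm44206, an antisense gene that shares 5.0% of the exon length of Mbd4, had log2 differences of -0.04, -0.22 and -0.30 in NeuN+ nuclei and of 0.29, 0.27 and 0.29 in NeuN- nuclei, none called. Its part in the count of Mbd4 was not tested. Ift122 had log2 differences of 0.183, -0.113 and -0.076 in NeuN+ nuclei and of 0.322, 0.133 and 0.041 in NeuN- nuclei, none called.

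**Figure D4:**
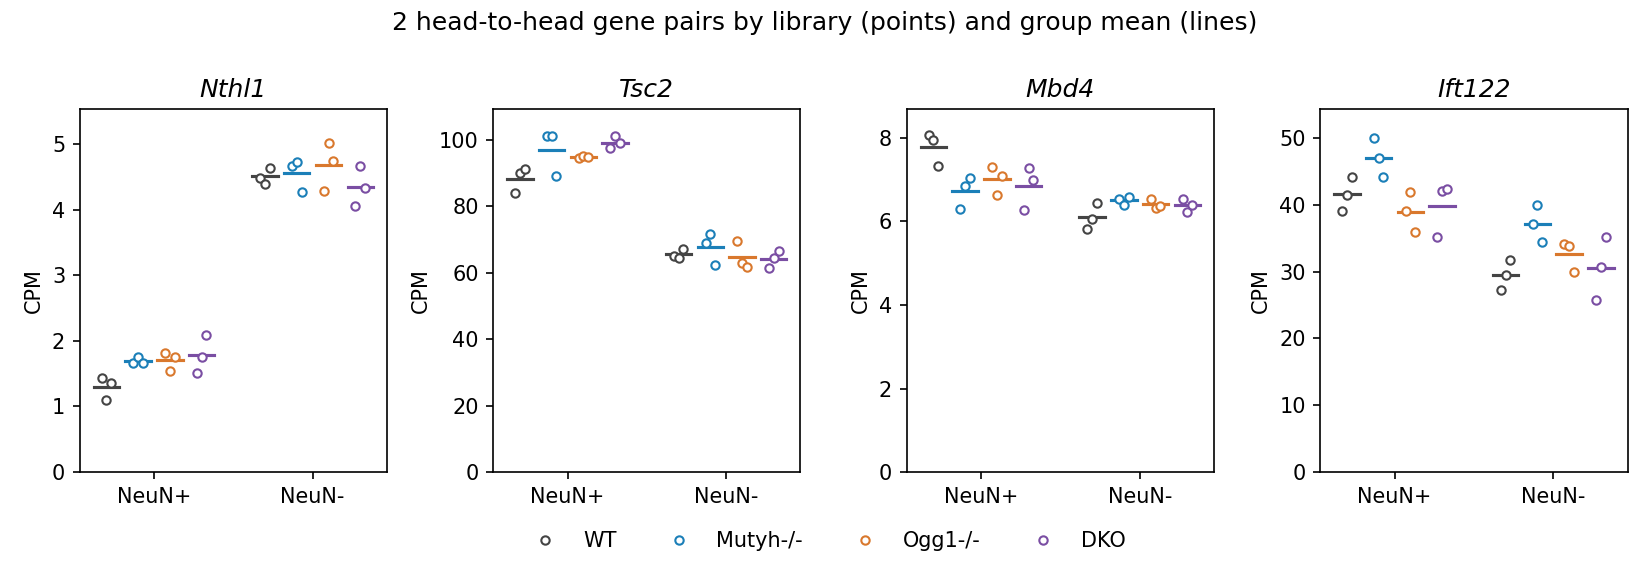
Level (y axis, CPM, from 0) of Nthl1 and Mbd4 and of Tsc2 and Ift122, which start 49 bp and 98 bp away on the other strand, with a point for each library and a line at the group mean (n = 3). Nthl1 and Tsc2 differed between NeuN+ and NeuN- nuclei in opposite directions, and in NeuN+ nuclei the 3 WT libraries were the lowest for Nthl1 and the highest for Mbd4.

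Neil3 and Ung, the least abundant of the genes, were at an unadjusted p below 0.05 in the NeuN- libraries labelled Ogg1-/- but were not called. Neil3 was at 1.55, 2.01 and 1.59 CPM there, above the 1.09 to 1.43 CPM of WT, a log2 difference of 0.41 (95% interval 0.017 to 0.803, adjusted p = 0.399, edgeR). In the NeuN- libraries labelled DKO it was at 1.77, 1.4 and 1.69 CPM and overlapped WT. Ung, the main uracil glycosylase of replicating cells, was at 0.175, 0.297 and 0.22 CPM in the NeuN- libraries labelled Ogg1-/- (13 to 21 counts), below the 0.304 to 0.434 CPM of WT, a log2 difference of -0.61 (95% interval -1.175 to -0.04, adjusted p = 0.386, edgeR). In those labelled DKO it was at 0.387, 0.321 and 0.356 CPM, within the range of WT. The summed level of oligodendrocyte markers was 5040 to 5670 CPM in the NeuN- libraries labelled Ogg1-/- and 5910 to 6650 CPM in WT, and that of astrocyte markers was 3250 to 4110 CPM against 2790 to 3310 CPM. The part of this makeup in the levels of Neil3 and Ung was not tested.

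For the other genes the intervals bound what the libraries could have missed. Over the 3 knockouts, the 95% intervals for Tdg ran from 0.872-fold to 1.13-fold of WT in NeuN+ and from 0.857-fold to 1.09-fold in NeuN- nuclei. Those for Smug1 ran from 0.817-fold to 1.21-fold and from 0.84-fold to 1.12-fold, and those for Mpg from 0.883-fold to 1.2-fold and from 0.862-fold to 1.17-fold. Neil1 was bounded by 0.815-fold and 1.39-fold in NeuN+ nuclei, where it was at 5.85, 6.3 and 6.58 CPM in the libraries labelled Ogg1-/- and at 4.87 to 5.77 CPM in WT (log2 difference 0.22, adjusted p = 0.489, edgeR). Neil2, which prefers oxidised bases in single-stranded bubbles, was bounded by 0.854-fold and 1.31-fold in NeuN+ nuclei. In NeuN- nuclei the bounds were 0.775-fold and 1.16-fold for Neil1 and 0.711-fold and 1.27-fold for Neil2. Rare transcripts were bounded far more loosely. In NeuN+ nuclei the intervals ran from 0.379-fold to 3.08-fold for Neil3, with 1 to 21 counts per library, and from 0.563-fold to 2.23-fold for Ung.

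The libraries labelled DKO were also set against each single knockout, to see whether losing both genes moved the remaining glycosylases further than losing 1. No gene of the 9 was called by edgeR or DESeq2. In NeuN+ nuclei the background was 0.216% against Ogg1-/- and 0.139% against Mutyh-/-, and in NeuN- nuclei it was 0.132% and 0.122%. At an unadjusted p below 0.05 stood 0 and 0 of 9 genes in NeuN+ nuclei and 1 and 0 of 9 in NeuN- nuclei, against 4.26% and 6.86% of all genes tested in NeuN+ and 4.34% and 11% in NeuN- nuclei. The difference with the smallest unadjusted p was Ung in NeuN- nuclei, 0.63 log2 units higher in the libraries labelled DKO than in those labelled Ogg1-/- (unadjusted p = 0.0344, adjusted p = 0.997, edgeR), with groups that did not overlap. Nthl1 in NeuN+ nuclei differed by 0.07 from the libraries labelled Ogg1-/- and by 0.06 from those labelled Mutyh-/-, with 95% intervals of -0.231 to 0.377 and -0.255 to 0.368. Whether the effect of a knockout differed between NeuN+ and NeuN- nuclei was tested for each genotype at an adjusted p below 0.05. None of the 9 genes passed by edgeR or DESeq2, with a background of 0.0209%, 0.0537% and 0.0567% for Mutyh-/-, Ogg1-/- and DKO. At an unadjusted p below 0.05 stood 3, 1 and 2 of 9 genes, against 8.58%, 7.09% and 9.4% of all genes tested.

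Genes of the enzymes that act after the glycosylase were followed in the same comparisons. Of 18 genes of this list, 0 were called in any comparison of a knockout with WT, near the 0.116 to 0.574% of all genes tested, and the median log2 difference was -0.05 to 0.03, against -0.01 to 0.01 over all genes tested. Between nuclei types in WT, 2 were higher in NeuN+ nuclei and 3 lower, against 42.9% of all genes tested called in either direction. Apex2, a relative of the main abasic site endonuclease, and Parp1, the sensor of strand breaks, were higher, by 1.29 and 1.02 log2 units. Lig1, Pold1 and Pole, a ligase and polymerases of replication, were lower, by log2 differences of -1.11, -1.61 and -1.80 (adjusted p at most 1.32e-07, edgeR). Polb, the polymerase of short-patch repair, was at 80.7 CPM in NeuN+ and 53.6 CPM in NeuN- WT nuclei, a log2 difference of 0.59 that was not called. Most of the list went the other way: 12 of the 18 genes were lower in NeuN+ WT nuclei and 6 higher. The median log2 difference was -0.48, against -0.014 over all genes tested. Of 10 genes of methylation and of the oxidation steps before Tdg, 0 were called in a knockout, again near the share over all genes. Between nuclei types in WT 4 of 10 were called, against the same 42.9%. Tet1, Dnmt3b and Uhrf1 were lower in NeuN+ nuclei, by log2 differences of -1.65, -1.63 and -2.28, and Gadd45b was higher by 1.12. Tet2 and Tet3, at 93.8 and 149 CPM in NeuN+ and 100 and 189 CPM in NeuN- WT nuclei, were not called.

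The genes whose pattern across libraries was most like that of a glycosylase gene were looked up. By Pearson's r of log2 CPM over 24 libraries, which share the nuclei type and its lanes, the genes most like Neil3 were Tyrobp (0.985), Gm47467 (0.983) and Cdc42bpg (0.982). Tyrobp encodes an adaptor of microglial receptors. Those most like Nthl1 were Zfp429 (0.989), Gm16337 (0.989) and Gm37101 (0.988), and those most like Mpg, higher in NeuN+ nuclei, began with E330011O21Rik (0.974). Neil1 was most like Cep63 (0.934), Neil2 most like Gm24165 (0.908), Tdg most like Ten1 (0.854) and Mbd4 most like Mapk9 (0.819). For Smug1 and Ung, which did not separate the nuclei types in WT, the highest values were 0.712 (Hilpda) and 0.679 (Gm9974).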

How the data were processed

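Nuclear RNA of sorted hippocampal nuclei was made into libraries with a stranded total RNA kit and sequenced as read pairs on an MGISEQ2000 instrument. The authors aligned reads to GRCm38 with HISAT2 (2.1.0) and counted pairs per gene with featureCounts of Rsubread on the Ensembl annotation of that build, and the deposited values are these raw counts, with no normalization. How the counting treated strand, gene overlaps and multiply mapped reads is not given in the sources used here. The counts of 55254 genes in 24 libraries, 56563586 to 96192142 in total, were grouped by their labels. They were fitted with edgeR (4.0.16, R 4.3.3) after TMM scaling and filterByExpr, by the quasi-likelihood test, within NeuN+ (30132 genes tested) and NeuN- (31863) for genotypes and over all libraries (33523) for differences between nuclei types and for the interaction. P-values were adjusted by Benjamini-Hochberg over all genes tested. All 9 members passed the filter in each fit. Levels are CPM with TMM factors over 24 libraries. Correlations used log2 CPM with a prior count of 2. Positions and exon lengths came from GENCODE vM21 and promoters from RefSeq, both of GRCm38. All members are named with values. From each pathway list at most 4 called genes per comparison by smallest p were to be named, and Lig1, Pole, Polb, Tet2, Tet3, the dividing cell markers and the neighbours Tsc2 and Ift122 were added after their values were seen. The members and lists were chosen with earlier results of these data known. Scripts were tested on simulated data. Alternatives were DESeq2 (1.42.0), the likelihood ratio test, other scaling, filters and sample sets, a replicate block and leaving out each library.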

Additional observations from a re-analysis of the deposited data

How the results depend on the processing

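In 3 kinds of comparison the count of glycosylase genes called was 0 of 9 under every alternative run. They were a knockout with WT, DKO with a single knockout, and the effect of genotype between nuclei types. All were run with DESeq2, the likelihood ratio test, median-ratio scaling, no filter and at least 10 counts in every library. The replicate block and leaving out each library in turn were also run for all. A fit of all 24 libraries or of the 2 genotypes compared, and no threshold for size, were run for the first 2 kinds only. Uncalled differences changed sign in 65 of 806, 36 of 538 and 41 of 483 refitted values of the 3 kinds of comparison. Nthl1 in NeuN+ nuclei stayed above WT throughout, with adjusted p-values of 0.131 to 0.475 (Mutyh-/-), 0.161 to 0.668 (Ogg1-/-) and 0.0932 to 0.588 (DKO), and Mbd4 stayed below, with 0.135 to 0.463, 0.304 to 0.762 and 0.259 to 0.558. Between nuclei types the 2 calls per genotype fell to 1 in each of WT, Mutyh-/-, Ogg1-/- and DKO with at least 10 counts in every library, because Neil3 was then not tested. Without the threshold for size they became 6 in WT and 5 in each of Mutyh-/-, Ogg1-/- and DKO. Of all genes tested, 72.4%, 73%, 73.3% and 73.9% passed there in the same order. These counts do not set the 9 genes apart from the rest. No called difference turned its sign.

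The main fits did not take replicate numbers as pairs, so p-values between nuclei types and for the interaction ignore any pairing. Same-numbered NeuN+ and NeuN- libraries had a mean correlation of deviations of 0.112 (0.011 to 0.292). Libraries with different numbers had a mean of -0.0555 (-0.258 to 0.136). The correlation was over 0.1 in 6 of 12 same-numbered pairs, and 22 of 24 libraries correlated best with their own number. Same-numbered libraries thus shared a part of their spread that the main fits leave out. In the fit of all libraries, the replicate block took these pairs into account. The number of glycosylase genes called was then 2 between nuclei types in each genotype and 0 for the interaction. By adjusted p alone, Tdg then also passed between nuclei types in WT (adjusted p = 0.0138) and Ogg1-/- (adjusted p = 0.0116, both edgeR). In the fits within a nuclei type, the block joined same-numbered libraries of the genotypes instead, and no glycosylase gene was called. Depth limits Neil3 in NeuN+ nuclei (1 to 21 counts per library) and Ung in all (10 to 38), where only large differences could be seen.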
